A study of Homo sapiens with 3 samples.

Results

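The genes described here are 10 early response genes: the zinc finger transcription factors EGR1, EGR2, EGR3, KLF4, KLF6 and KLF10, the orphan nuclear receptor NR4A1, the small proteins IER2 and IER3, and MYC. They were taken as the probe sets whose single gene symbol was one of these names, and each G9a shRNA array was set against the Luc shRNA array. Of the 10 genes, 9 had such a probe set, 18 probe sets of the 54675 on the array, and EGR2 had none. The SKOV-3 cells, an ovarian cancer line, stably carried G9a shRNA1, G9a shRNA2 or, in the control cells, Luc shRNA, which targets luciferase, and the cells of all 3 conditions had been kept in puromycin for 2 weeks. Each condition was measured on 1 Affymetrix array from total RNA, so no replicate error can be given for a condition. A difference described below is that between single arrays, and both comparisons share the Luc shRNA array, whose own error enters every value.

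Early response genes are switched on within minutes of a growth factor, stress or attachment signal without the need for new protein, and their short-lived mRNAs then decay. Serum response factor (SRF), which binds CArG boxes together with ternary complex factors of the ERK pathway, and CREB drive many of them. G9a, the product of EHMT2, methylates lysine 9 of histone H3, a mark of silenced genes. In epithelial cells KLF4 is known for roles in differentiation and cell cycle arrest, and MYC for driving growth and ribosome production.

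Signals are MAS5 values, a linear intensity per probe set. A probe set entered the comparisons if its signal on at least 1 array was no lower than 12.0, the median of all values. That left 8 of the 9 measured members and 13192 genes in all, each gene taken at its brightest probe set. A stricter limit at the 75th percentile of all values, 89.7, left 7 members (KLF4, KLF6, KLF10, MYC, IER2, IER3 and EGR1) and 8348 genes. EHMT2 read 29.7 with G9a shRNA1 and 79.2 with G9a shRNA2, against 182 with Luc shRNA at its brightest probe set. Its second probe set read 23.9 with G9a shRNA1 and 16.4 with G9a shRNA2, against 27.6 with Luc shRNA. The third was under the filter and not lower, at 2.03 with G9a shRNA1 and 8.49 with G9a shRNA2, against 2.05 with Luc shRNA. Of 9 epithelial and ovarian markers, 8 passed the filter and MUC16 did not, where 13192 of all 19775 genes passed it. Passing so low a limit is a description and no test of SKOV-3 identity. The 4 measured leukocyte markers were all under the filter, and their summed signal was 16.5 on the G9a shRNA1 array and 15.01 on the G9a shRNA2 array, against 11.6 on the Luc shRNA array. Of 4 endothelial markers PECAM1 passed, at 29.9 with G9a shRNA1 and 28.5 with G9a shRNA2, against 15.4 with Luc shRNA. Of 3 mesothelial markers UPK3B and CALB2 passed. UPK3B read 57.6 with G9a shRNA1 and 72.7 with G9a shRNA2, against 66.7 with Luc shRNA. CALB2, at lower signal, read 7.17 with G9a shRNA1 and 11.5 with G9a shRNA2, against 18.3 with Luc shRNA. MSLN, under the filter, read 5.39 with G9a shRNA1 and 6.29 with G9a shRNA2, against 1.79 with Luc shRNA. The 3′ to 5′ ratio of the β-actin control probe sets, a sign of RNA quality, was 1.83 on the G9a shRNA1 array and 1.47 on the G9a shRNA2 array, against 3.68 on the Luc shRNA array, and so moved with the groups. The same ratio for GAPDH lay between 1.12 and 1.15. The part of these differences between arrays in the values below was not tested.

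Promoter letters from RefSeq (GRCh38.p14) are shown for members on different sides of the results: KLF4, furthest above the control, IER2, also above it, and KLF6 and EGR1, whose brightest probe sets were not above it by more than the spread between arrays. Each is the 250 bases before the gene start, on the gene's own strand. Capitals mark every match, on either strand, to a CArG box, to TGACGT (the core of a CREB site), to GCGGGGGCG (the EGR site) or to GGGCGG (a GC box, which SP and KLF proteins bind).
EGR1, chr5:138465229-138465478, plus strand: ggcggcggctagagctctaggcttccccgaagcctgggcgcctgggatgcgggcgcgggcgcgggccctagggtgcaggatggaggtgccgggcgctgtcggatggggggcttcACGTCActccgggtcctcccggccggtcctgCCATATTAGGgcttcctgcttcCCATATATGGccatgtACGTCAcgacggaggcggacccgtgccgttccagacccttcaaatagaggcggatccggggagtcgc
KLF4, chr9:107489770-107490019, minus strand: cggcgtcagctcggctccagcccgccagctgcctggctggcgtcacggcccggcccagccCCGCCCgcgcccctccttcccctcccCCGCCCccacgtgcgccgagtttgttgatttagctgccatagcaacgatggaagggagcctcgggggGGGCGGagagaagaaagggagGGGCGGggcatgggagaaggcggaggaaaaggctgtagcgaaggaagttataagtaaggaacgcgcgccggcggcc
KLF6, chr10:3785210-3785459, minus strand: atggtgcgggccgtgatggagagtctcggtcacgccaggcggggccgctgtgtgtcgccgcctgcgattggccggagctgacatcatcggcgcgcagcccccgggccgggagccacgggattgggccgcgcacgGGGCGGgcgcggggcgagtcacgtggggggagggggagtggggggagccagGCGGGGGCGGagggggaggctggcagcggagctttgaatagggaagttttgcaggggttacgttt
IER2, chr19:13150161-13150410, plus strand: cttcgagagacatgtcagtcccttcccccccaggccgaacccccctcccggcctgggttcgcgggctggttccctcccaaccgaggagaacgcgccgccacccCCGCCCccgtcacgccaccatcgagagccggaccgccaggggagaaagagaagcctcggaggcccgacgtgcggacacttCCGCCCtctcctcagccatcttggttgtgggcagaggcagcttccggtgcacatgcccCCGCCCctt
The EGR1 window held 2 CArG boxes, starting 105 and 83 bases before the gene start, and 2 matches to TGACGT, starting 136 and 67 bases before it. It held no GC box. The KLF4 and IER2 windows held 4 and 3 GC boxes and none of the other sites, and the KLF6 window held 2 GC boxes, of which 1 overlaps its EGR site. Among 35116 RefSeq promoters of this length, 1.16% held a CArG box, 7.10% TGACGT, 4.72% the EGR site and 42.6% a GC box. Of the other members, the table held NR4A1 and EGR2, each with more than 1 start, and a further CArG box lay 71 bases before a start of EGR2. EGR3, KLF10, IER3 and MYC were not in it. Such a match is a description of the letters and not evidence that a factor binds there.

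At the brightest probe set no member was past 2-fold with both G9a shRNAs in either direction, 0 of 8, where 2.57% of all genes past the filter were past 2-fold higher with both and 1.66% past 2-fold lower. At a lower limit of 1.5-fold, KLF4 alone was higher with both, 1 of 8, against a background of 6.84%, and no member was lower, against 4.78%. Without regard to size, 7 of the 8 were higher with both shRNAs, against 44.0% of all genes, and none was lower with both, against 30.8%. KLF10 counts among the 7 at 0.00 with G9a shRNA1 and turned to -0.07 there after median centring. The median log2 fold change of the 8 was 0.40 with G9a shRNA1 and 0.44 with G9a shRNA2, beside 0.00 and 0.12 over all 13192 genes. Over the 7 members past the stricter limit it was 0.39 and 0.42, beside 0.00 and 0.13 over 8348 genes. An alternative fit with limma took both G9a shRNA arrays as 1 group and let the lone Luc shRNA array vary like them. At the members' brightest probe sets it called KLF4 and IER3 higher, 2 of 8, and none lower (Benjamini-Hochberg adjusted p under 0.05), where it called 2.36% of all probe sets past the filter higher and 1.5% lower. Both calls were lost without the intensity trend in the variance, where the fit called 0 members and 0 of the 30446 probe sets.

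**Figure D1:**
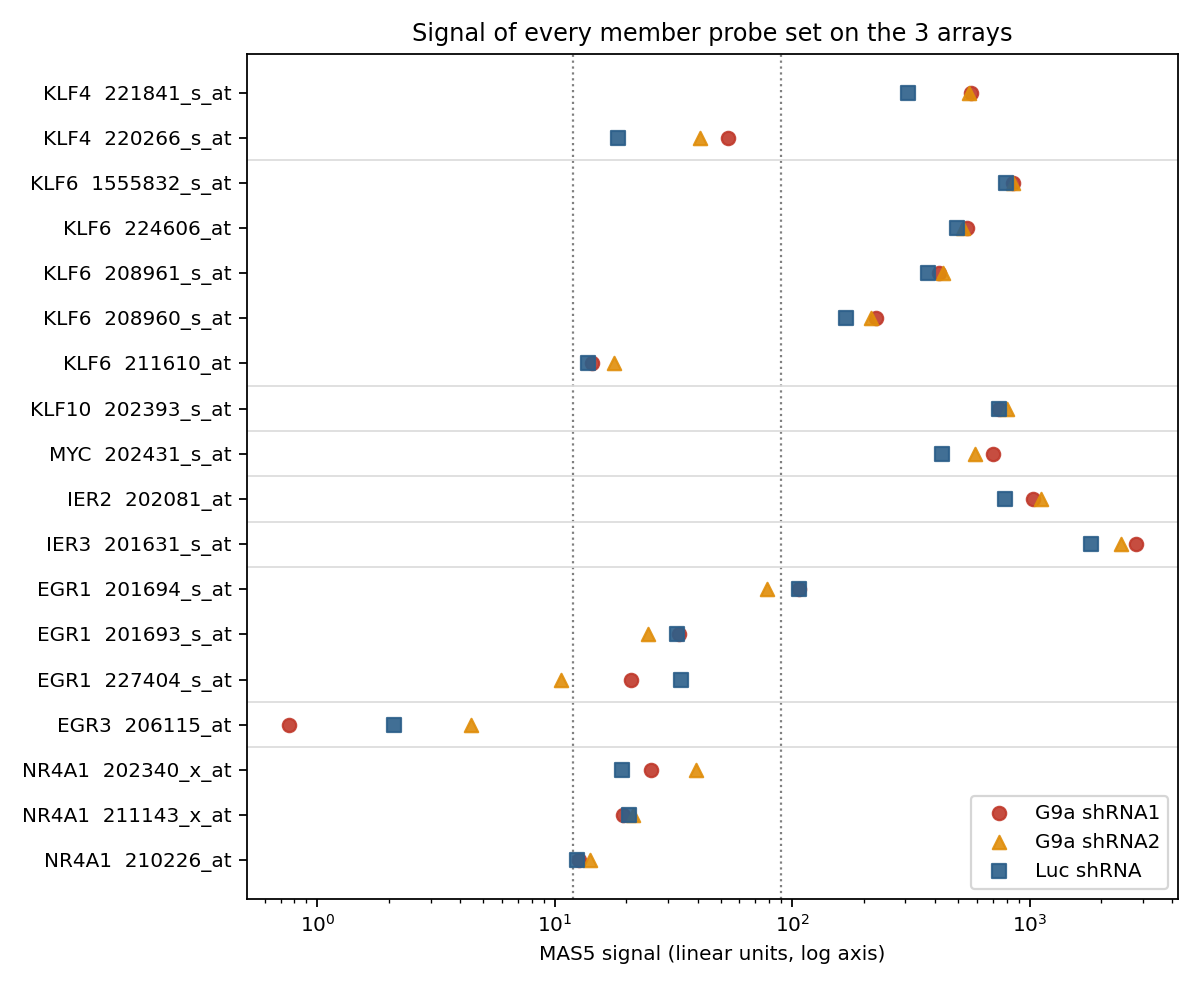
MAS5 signal (x axis, linear units on a log axis) of all 18 member probe sets on the G9a shRNA1 (circles), G9a shRNA2 (triangles) and Luc shRNA (squares) arrays, 1 array each. Dotted lines mark the median (12.0) and the 75th percentile (89.7) of all values. Both G9a shRNA arrays lie to the right of the Luc shRNA array for KLF4, MYC, IER2 and IER3, and no G9a shRNA array lies clearly to its right for EGR1.

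KLF4, a zinc finger factor of epithelial differentiation, was the member furthest above the control past the stricter limit. Its brightest probe set (221841_s_at) read 565 with G9a shRNA1 and 554 with G9a shRNA2, against 307 with Luc shRNA. Both G9a shRNA arrays were thus high and close to each other, and the log2 fold changes were 0.88 (G9a shRNA1) and 0.85 (G9a shRNA2). Pairs of log2 fold changes below are given in this order. The second KLF4 probe set (220266_s_at) read 53.8 with G9a shRNA1 and 40.9 with G9a shRNA2, against 18.5 with Luc shRNA. That probe set was past 2-fold with both shRNAs, at 1.54 and 1.14, the only 1 of the 17 member probe sets past the filter to be so, where 3.32% of all probe sets past it were. As a measure of the spread between arrays, the log2 difference between the 2 G9a shRNA arrays had an SD of 0.22 over the 500 probe sets nearest in signal to the brighter KLF4 probe set and of 0.44 over those nearest to the dimmer one. This spread includes real differences between the 2 shRNAs and leaves out any error of the Luc shRNA array. Both changes of both KLF4 probe sets were larger than it. Of the 8348 genes past the stricter limit, 87 (1.04%) reached the smaller of the 2 KLF4 changes with both shRNAs, KLF4 included.

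The other Krüppel-like members were close to the control. KLF6, a widely expressed zinc finger factor reported as a tumor suppressor, has 5 probe sets, and the brightest (1555832_s_at) read 851 with G9a shRNA1 and 852 with G9a shRNA2, against 793 with Luc shRNA. The 3 values lie within a narrow range, with log2 fold changes of 0.10 and 0.10 beside an SD of 0.19 between the G9a shRNA arrays. Next in signal, 224606_at gave 0.14 and 0.08, and 208961_s_at gave 0.15 and 0.21. The fourth (208960_s_at) read 225 with G9a shRNA1 and 215 with G9a shRNA2, against 169 with Luc shRNA, log2 fold changes of 0.41 and 0.35 beside an SD of 0.24. All 5 KLF6 probe sets were on the higher side, but only 208960_s_at was past that spread with both shRNAs. No allowance was made there for the median over all genes past the stricter limit, 0.00 with G9a shRNA1 and 0.13 with G9a shRNA2. KLF10, also known as TIEG1, a repressor induced early by TGF-β, read 746 with G9a shRNA1 and 806 with G9a shRNA2, against 744 with Luc shRNA. Its log2 fold changes were 0.00 and 0.12, inside the SD of 0.19. After quantile normalization, which takes a median of 0.14 from the log2 fold changes with G9a shRNA2 past the stricter limit, the brightest probe sets of KLF6 and KLF10 both gave 0.00 with G9a shRNA2.

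MYC, a basic helix-loop-helix factor that drives growth and ribosome production, read 701 with G9a shRNA1 and 590 with G9a shRNA2, against 428 with Luc shRNA, at its single probe set. Both G9a shRNA arrays were above the control and that of G9a shRNA1 was the higher. The log2 fold changes were 0.71 and 0.46, larger than the SD of 0.20 between the G9a shRNA arrays at this signal. Past the stricter limit, 591 genes (7.08%) reached the smaller of the 2 MYC changes, 0.46, with both shRNAs. Among the genes past that limit, MYC was at percentile 96.8 with G9a shRNA1 and at percentile 85.8 with G9a shRNA2.

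IER2 and IER3 are small immediate early proteins, IER2 of the nucleus and IER3 (IEX-1) a regulator of apoptosis and NF-κB signaling. IER2 read 1035 with G9a shRNA1 and 1115 with G9a shRNA2, against 790 with Luc shRNA, log2 fold changes of 0.39 and 0.50. IER3 read 2810 with G9a shRNA1 and 2429 with G9a shRNA2, against 1820 with Luc shRNA, log2 fold changes of 0.63 and 0.42. For each gene both G9a shRNA arrays were above the control, by more than the SD of 0.19 for IER2 and of 0.16 for IER3. Past the stricter limit, 821 genes (9.83%) reached the smaller IER2 change, 0.39, with both shRNAs, and 732 (8.77%) the smaller IER3 change, 0.42. IER2 was at percentile 87.0 with G9a shRNA1 and 87.6 with G9a shRNA2. IER3 was at percentile 95.4 with G9a shRNA1 and 82.8 with G9a shRNA2. Neither was past 2-fold with either shRNA.

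**Figure D2:**
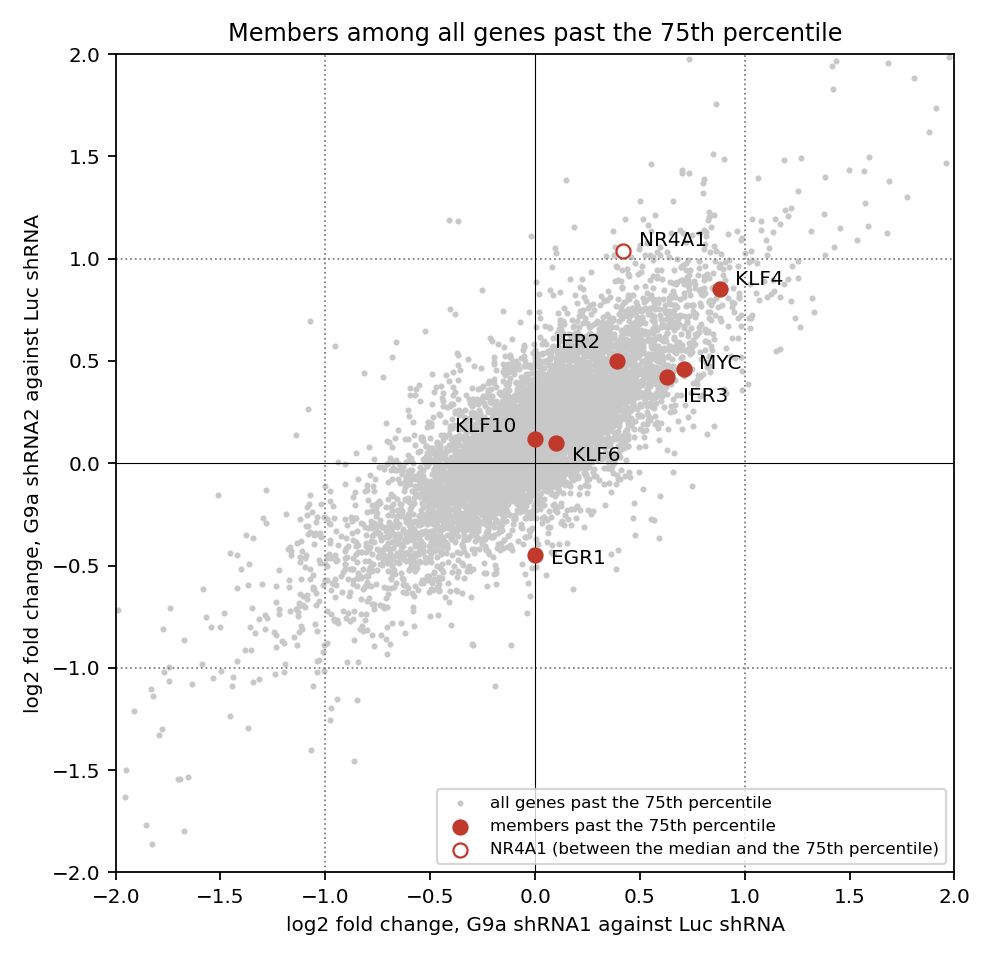
Change relative to the Luc shRNA array (log2) on the G9a shRNA1 array (x axis) and on the G9a shRNA2 array (y axis). Shown are the 8348 genes past the 75th percentile (grey), the 7 members among them (filled) and NR4A1 (open), 1 array per shRNA. Dotted lines mark 2-fold, and 22 genes lie outside the axes. KLF4 lies nearest the upper right corner among the filled points, MYC, IER2 and IER3 lie above 0 on both axes, and EGR1 lies at 0.00 and -0.45.

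EGR1, an early factor that binds GC-rich sites and is induced by ERK signaling, did not share this direction. Its brightest probe set (201694_s_at) read 107 with G9a shRNA1 and 78.3 with G9a shRNA2, against 107 with Luc shRNA. The G9a shRNA1 array matched the control and the G9a shRNA2 array was below it, at 0.00 and -0.45 beside an SD of 0.29. The second probe set (201693_s_at) read 33.3 with G9a shRNA1 and 24.7 with G9a shRNA2, against 32.6 with Luc shRNA, log2 fold changes of 0.03 and -0.40 beside an SD of 0.46. The third (227404_s_at) read 21.0 with G9a shRNA1 and 10.7 with G9a shRNA2, against 34.0 with Luc shRNA, log2 fold changes of -0.69 and -1.68 beside an SD of 0.53. In all 3 probe sets the G9a shRNA2 array was the lowest, and in none was a G9a shRNA array above the control by more than 0.03 on the log2 scale. Among the 8348 genes past the stricter limit, EGR1 was at percentile 50.2 with G9a shRNA1 and at percentile 4.73 with G9a shRNA2.

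EGR3, a relative of EGR1 induced by NFAT signaling, was under the filter at its single probe set. Its signal was 0.762 with G9a shRNA1 and 4.43 with G9a shRNA2, against 2.10 with Luc shRNA, and no fold change is given at such low signals. EGR2 had no probe set of 1 symbol and has no value here. NR4A1 (NUR77), an orphan receptor and early gene with roles in apoptosis, passed the filter at low signal. Its brightest probe set (202340_x_at) read 25.5 with G9a shRNA1 and 39.4 with G9a shRNA2, against 19.1 with Luc shRNA, log2 fold changes of 0.42 and 1.04 beside an SD of 0.47. The other NR4A1 probe sets did not repeat this. The next (211143_x_at) read 19.4 with G9a shRNA1 and 21.3 with G9a shRNA2, against 20.6 with Luc shRNA, and the third (210226_at) gave 0.02 and 0.17. The names of the first 2 end in _x_at, which marks probes that may bind other transcripts. At the brightest probe sets, NR4A1 was the 1 member past 2-fold with a single shRNA, G9a shRNA2, where 4.35% of genes past the filter were higher. At these probe sets no member was past 2-fold higher with G9a shRNA1, against 4.21%, or lower with either shRNA, where 5.10% (G9a shRNA1) and 3.58% (G9a shRNA2) of genes were.

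**Figure D3:**
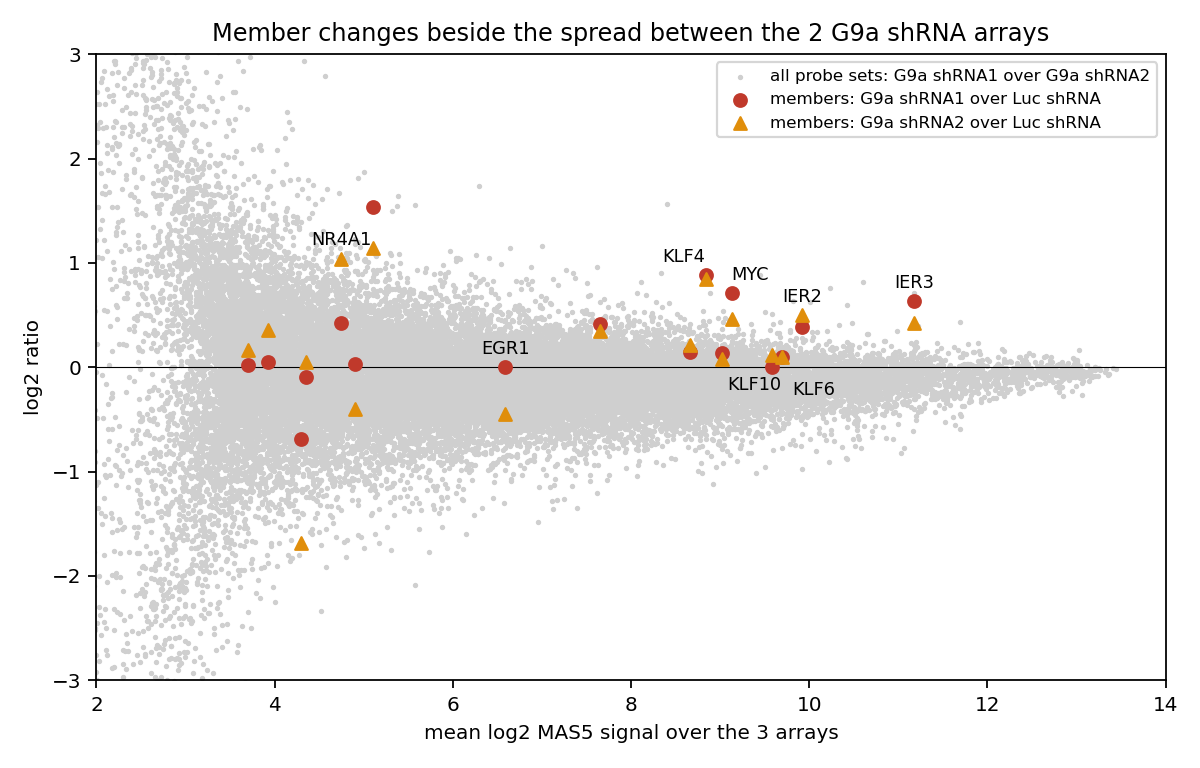
Log2 ratio (y axis) against mean log2 MAS5 signal over the 3 arrays (x axis). Grey points are the ratio of the G9a shRNA1 to the G9a shRNA2 array for probe sets past the filter, of which 391 lie outside the axes, and circles and triangles are the ratios of the G9a shRNA1 and G9a shRNA2 arrays to the Luc shRNA array for the 17 member probe sets past the filter. The points of KLF4, MYC, IER2 and IER3 lie along the upper edge of the grey cloud or above it, and those of KLF6 and KLF10 lie inside it.

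Other genes of the same families were read at their brightest probe set to see how far the pattern of the members extended. Of 19 other EGR, KLF, NR4A and IER genes, 13 passed the filter. At 2-fold, 1 of them was higher with both shRNAs and 0 were lower, beside 2.57% and 1.66% of all genes past the filter. Without regard to size, 8 were higher and 4 lower with both, beside 44.0% and 30.8% of all genes. The counts of the lists below stand beside the same shares. The median of the 13 was 0.03 with G9a shRNA1 and 0.31 with G9a shRNA2. The gene past 2-fold was KLF15, a metabolic regulator, at 2.99 and 2.83, but its Luc shRNA signal of 1.67 was near the background, and the changes were 0.14 and 0.00 once every signal below 12.0 was set to that value. IER5, an early gene linked to heat shock factor, read 1206 with G9a shRNA1 and 1121 with G9a shRNA2, against 755 with Luc shRNA, log2 fold changes of 0.67 and 0.57. KLF5, a growth-promoting factor of epithelia, read 264 with G9a shRNA1 and 286 with G9a shRNA2, against 185 with Luc shRNA, log2 fold changes of 0.52 and 0.63. KLF12, a repressor, was on the other side, at -0.80 and -0.24.

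Regulators upstream of the members gave a mixed picture. Of 11 measured SRF and CREB regulators past the filter, none was past 2-fold with both shRNAs, and the median was 0.00 with G9a shRNA1 and 0.21 with G9a shRNA2. SRF itself read 89.0 with G9a shRNA1 and 103 with G9a shRNA2, against 51.7 with Luc shRNA, log2 fold changes of 0.78 and 0.99. CRTC1, a CREB coactivator, gave 0.63 and 0.82, and its relative CRTC2 gave 0.36 and 0.37. CREM, a cAMP-responsive regulator with repressor isoforms, was lower, at -0.62 and -0.47. NAB1 and NAB2, the corepressors that bind EGR proteins, gave -0.13 and -0.12, and -0.70 and -0.24, at their brightest probe sets. Averaged over all probe sets, the median of these 2 genes turned to 0.46. A further list held 9 mRNA-binding proteins, mostly of AU-rich elements, through which many early mRNAs are degraded. PUM2, also in this list, binds a different element. ZFP36 (tristetraprolin), itself an early gene, read 138 with G9a shRNA1 and 134 with G9a shRNA2, against 77.7 with Luc shRNA. ZFP36L2 gave 0.19 and 0.41, TIAL1 gave 0.12 and 0.41, and KHSRP was lower, at -0.28 and -0.30. Without regard to size, 3 of the 9 were higher with both and 2 lower, beside 44.0% and 30.8% of all genes. The median of these 9 was -0.06 and 0.06, which are the values of PUM2.

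Downstream of the members, 10 EGR targets past the filter stood at medians of -0.17 (G9a shRNA1) and -0.05 (G9a shRNA2), and none was past 2-fold with both. GDF15, a stress-induced TGF-β family member, had the highest mean, at 0.80 and 1.37. ICAM1, an adhesion receptor, gave 0.89 and 0.51, but from a Luc shRNA signal of 12.7, close to the filter. THBS1, which encodes thrombospondin, gave -0.29 and -0.42, and the tissue factor gene F3 gave -0.30 and -0.29. Averaged over all probe sets, the median of the EGR targets over both shRNAs turned from -0.13 to 0.03. Of 17 MYC targets past the filter, none was past 2-fold with both. Without regard to size, 12 were higher with both and 3 lower, beside 44.0% and 30.8% of all genes. The median of the 17 was 0.19 with G9a shRNA1 and 0.18 with G9a shRNA2. The highest mean of both shRNAs was that of ODC1, the rate-limiting enzyme of polyamine synthesis, at 0.60 and 0.54. CAD, which starts pyrimidine synthesis, gave 0.35 and 0.72, and the ribosome assembly factor RRS1 gave 0.63 and 0.38. POLR1B, a subunit of RNA polymerase I, gave 0.54 and 0.47. Among 12 genes of the wider MYC network past the filter, the MYC relative MYCL included, the median was 0.16 and 0.24. MAX, the partner of MYC on DNA, read 599 with G9a shRNA1 and 601 with G9a shRNA2, against 462 with Luc shRNA. MXD1, which competes with MYC for MAX, was the 1 gene of this list past 2-fold with both, at 1.07 and 1.01 from a Luc shRNA signal of 14.2. MLX, a relative of MAX, gave 0.37 and 0.51, and MXD3 gave -0.70 and -0.45.

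For comparison, 7 AP-1 subunits past the filter, the other main class of early transcription factors, had a median change of 0.56 (G9a shRNA1) and 0.54 (G9a shRNA2). Of these, ATF3, a stress-induced member, was past 2-fold with both, at 1.59 and 1.5, and 5 were higher with both and none lower. FOS, like EGR1 a target of SRF, gave 0.70 and 0.54, but its Luc shRNA signal of 11.2 was under the median of all values. FOSL1 gave 0.61 and 0.52, and JUN gave 0.56 and 0.64. The 28 other early genes past the filter had a median of 0.47 and 0.41, and 21 were higher with both and 4 lower. Of all genes past the filter, 44.0% were higher with both and 30.8% lower. Mean changes in this list ran from -1.12 to 1.96. Past 2-fold higher with both were 3 of the 28, beside 2.57% of all genes. They were RGS2, a brake on G protein signaling (2.12 and 1.79), MAFF, a small Maf factor (1.32 and 1.13), and SIK1 (1.17 and 1.17). SIK1 is a CREB-regulated kinase. PPP1R15A, the eIF2α phosphatase subunit GADD34, gave 1.25 and 0.99. The study had picked RGS2 and PPP1R15A on these very samples, so the direction of both on these arrays adds no independent evidence. Its RT-PCR, and for PPP1R15A its report of G9a at the promoter, are separate measurements. The members and these lists were not compared by a test, and their medians stand side by side only as a description.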

How the data were processed

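Total RNA of the 3 conditions was measured on Affymetrix U133 Plus 2.0 arrays, 1 array per condition. The deposited values are probe set intensities on a linear scale, made by the authors with MAS5, per the labels, with settings and version not given in the sources used here. No value was at or under 0. They were used as deposited, and log2 ratios to the Luc shRNA array were computed. The array annotation gave 41097 probe sets 1 symbol, 1801 several and 11777 none. Symbols were updated by Entrez identifier through RefSeq (54 probe sets unmatched). Each gene was read at its brightest probe set (mean log2 signal over the 3 arrays).

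The members and lists were chosen with earlier results of these data known. All members are named, and up to 4 genes of each list, those furthest from 0 by the smaller of their 2 changes. With 1 array per condition, the main rule kept the study's limit of more than 2-fold. The paper words that limit as a change with either shRNA. The main rule here asked for more, as a gene had to pass the limit in the same direction with each shRNA. Adjusted p-values come only from limma as an alternative. The number of arrays limits the precision, and the G9a shRNA arrays lay over 2-fold apart in 0.443% of probe sets past the 75th percentile and in 14.1% of those between it and the median.

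The alternatives were the filter, a floor, median centring, quantile normalization, the choice of probe set, each shRNA alone, limits of 1.5-fold and 3-fold, and limma 3.58.1 in R 4.3.3, where both G9a shRNA arrays form 1 group. The rule and limma were tested on simulated data. Python 3.11.15, numpy 2.4.6, pandas 2.3.3 and matplotlib 3.10.9 were used.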

Additional observations from a re-analysis of the deposited data

Results flagged for a closer look

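In 4 member probe sets the 2 G9a shRNA arrays lay on opposite sides of the Luc shRNA array, a difference between the shRNAs that was not tested. The log2 difference, G9a shRNA1 minus G9a shRNA2, was 0.45 and 0.43 for the EGR1 probe sets 201694_s_at and 201693_s_at, where the G9a shRNA1 array was within 0.03 of the control. For the NR4A1 probe set 211143_x_at it was -0.14. For EGR3, under the filter on all 3 arrays, it was -2.54, beside an SD of 2.01 among the 500 probe sets nearest in signal.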

How the results depend on the processing

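The count of members past 2-fold higher with both shRNAs, 0, became 1 with G9a shRNA2 alone (NR4A1), 1 at 1.5-fold (KLF4) and 2 by limma with an intensity trend in the variance (KLF4 and IER3, adjusted p = 0.0069 and 0.014). At an unadjusted p under 0.05 limma called 4 of the 8 members, where it called 14.6% of all probe sets, and the adjusted p of the other 6 ran from 0.11 to 0.94. Without the trend, an alternative chosen after seeing the data, limma called 0 members and 0 of the 30446 probe sets. The other alternatives gave 0, as did all of them for lower members. With the mean over all probe sets, KLF4 gave 1.21 with G9a shRNA1 and 1.0 with G9a shRNA2, the latter just short of the 2-fold limit. The median over members, 0.48, was 0.44 with no filter, with the filter at the 75th percentile and with median centring, 0.36 with the mean over all probe sets, 0.11 with the 3 members that have a probe set not ending in _s_at or _x_at, 0.40 with only G9a shRNA1 and 0.44 with only G9a shRNA2. Of 66 alternative values of single members, 65 kept their direction, EGR1 with G9a shRNA1 alone being the exception, and NR4A1 was 0.27 as the mean of its probe sets. Many of the 66 could not differ. A changed filter or the floor left the value of a single member as it was, as did averaging for a gene with 1 probe set. Of 81 list medians, 74 kept their direction, the others lying in the lists of EGR corepressors, SRF and CREB regulators, EGR targets and AU-rich element binding proteins. The causes were not tested. No paired analysis was possible because each condition has 1 array. Signal over background limits EGR3, NR4A1 and the dimmer EGR1 probe sets.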
